A study of Mus musculus with 27 samples.

Results

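The comparison described here sets hematopoietic stem and progenitor cells (HSPCs) of the fetal liver (FL) at embryonic stage E16.5 (3 libraries) against the same population at E12.5 (3 libraries), both from C57BL/6 mice with no transgene or treatment in the labels. Its members are the genes at 1 FPKM or more in at least 3 of these 6 libraries, 11307 of the 24418 entries of the expression table. FPKM is a fragment count corrected for gene length and library size. The series profiled total RNA of HSPCs by RNA-seq at successive sites and ages of blood formation, from the E12.5 placenta (PL) through the fetal liver to the bone marrow (BM), from the perinatal stage to 8 weeks. It holds 27 libraries in 9 groups of 3. The labels call the cells highly purified HSPCs without naming the surface markers of the sort, and nothing says whether libraries of a group came from separate litters, so every p-value below rests on library-to-library spread that may be technical.

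As background, the liver is the main blood-forming organ of the mid-gestation mouse embryo. Stem and progenitor cells enter it, divide rapidly and expand there, and later in gestation they begin to seed the bone marrow. A rapidly dividing cell must build ribosomes, charge transfer RNAs, fold and degrade proteins and make nucleotides, while Notch, NF-kappaB, cytokine and homing receptors carry signals from the niche and the embryo.

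Notch pathway genes rose, and genes that build ribosomes, charge transfer RNAs or form the proteasome fell. Of 22 Notch pathway genes 13 rose, Hes1 from 31.7 to 327 FPKM. Of 34 genes that build ribosomes 27 fell, as did 26 of 31 proteasome subunits and 15 of 20 aminoacyl-tRNA synthetases. In the endoplasmic reticulum (ER) stress response the chaperone Hspa5 rose from 289.9 to 718 FPKM, while most of the other folding genes were not called or were lower. Over all 11307 genes 20.8% rose and 17.8% fell.

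Levels were compared as log2(FPKM + 1), so a log2 difference understates the change of low genes. A gene was called where limma gave a Benjamini-Hochberg adjusted p under 0.05, with the spread pooled over all 27 libraries. Of the 11307 genes, 2352 rose and 2015 fell. All 3 E16.5 libraries stood above all 3 E12.5 libraries for 3385 genes (29.9%) and below them for 3082 (27.3%). The median log2 difference was 0.01 over all members. Among the 10486 genes at 1 FPKM or more in all 6 libraries, 2041 rose (19.5%) and 1904 fell (18.2%); these are the shares against which gene lists are read below. The filter let 221 genes in through the E16.5 libraries alone, of which 199 rose, and 66 through the E12.5 libraries alone, of which 48 fell, so their direction came largely with the filter.

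The rises were the larger and the falls the more abundant. At least 2-fold, 393 genes rose (3.48%) and 87 fell (0.769%). Genes that rose had a median of 11.1 FPKM and genes that fell 24.4 FPKM, against 13.6 FPKM for those not called. Of the 784 genes at 100 FPKM or more, 31.8% fell and 13.3% rose, whereas of the 2589 genes under 5 FPKM, 10.4% fell and 25.6% rose. The annotated gene span was a median of 28.5 kb for genes that rose and 16.8 kb for those that fell, against 22.4 kb for all members with a length.

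**Figure D1:**
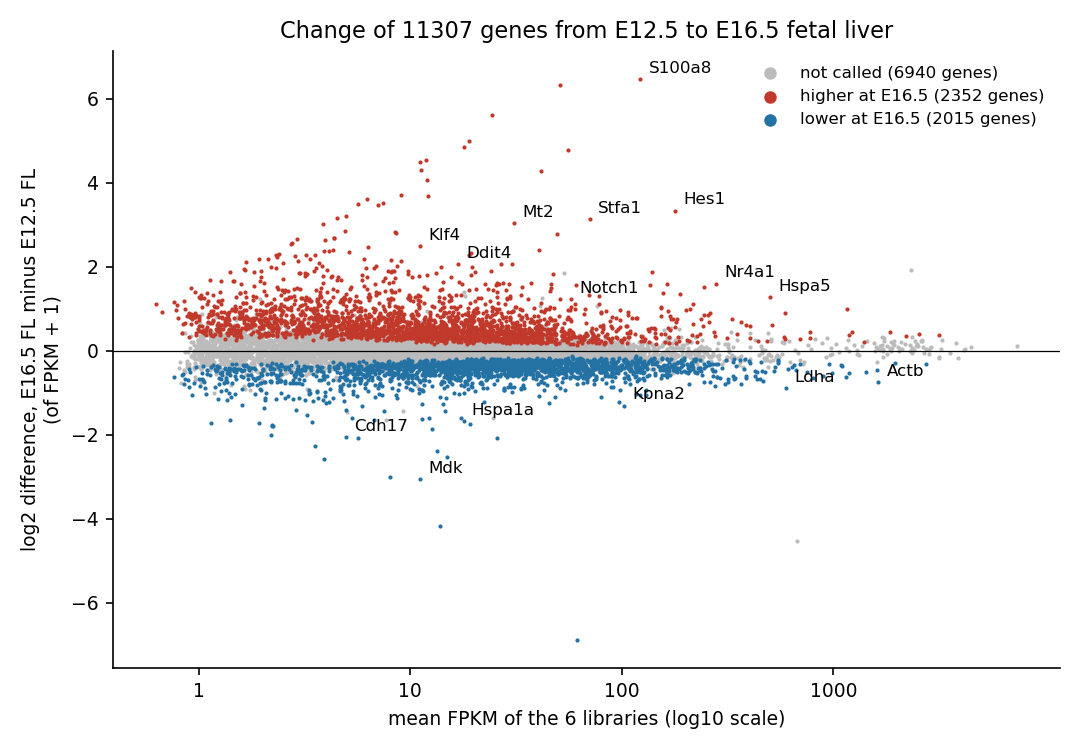
Each point is 1 of the 11307 genes, with the mean FPKM of the 6 fetal liver libraries on a log10 axis and the log2 difference (E16.5 minus E12.5, of FPKM + 1) on the vertical axis; red points rose, blue points fell and grey points were not called. The red cloud reaches further from 0 on the left, while blue points make up most of the called genes above 100 FPKM.

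The largest of the named changes were rises of genes known from neutrophils and from B-cell precursors. S100a8, a calcium-binding protein of neutrophils, was at 0.951, 1.24 and 2.68 FPKM at E12.5 and 381, 203 and 145 FPKM at E16.5. The third E16.5 library was the lowest of its group and far above E12.5 (log2 difference 6.48 ± 0.53 SE, adjusted p = 9.8e-09). Igll1, of the surrogate light chain of B-cell precursors, was at 0.104, 0 and 0.197 FPKM at E12.5 and 40.7, 53.7 and 12.8 FPKM at E16.5, again lowest in the third E16.5 library (log2 difference 4.85 ± 0.49 SE, adjusted p = 1.9e-07). It passed the filter only through the E16.5 libraries, so its direction came largely with the filter. Among genes that could be named and whose groups did not overlap, 23 averaged under 0.5 FPKM at E12.5 and at least 5 FPKM at E16.5, and 0 the other way. All 23 passed the filter only through the E16.5 libraries. Camp and Ngp, of neutrophil granules, were listed at 0 in every E12.5 library.

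Among the largest falls were growth factor and RNA-binding genes. Mdk, a heparin-binding growth factor, was at 19.6, 21.2 and 20.8 FPKM at E12.5 and 1.38, 2.31 and 1.21 FPKM at E16.5. The groups were far apart (log2 difference -3.05 ± 0.22 SE, adjusted p = 1.8e-09). Igf2bp1, an RNA-binding protein of fetal cells, was at 30.3, 28.3 and 31.2 FPKM at E12.5 and 6.07, 8.32 and 10.8 FPKM at E16.5 (log2 difference -1.75 ± 0.13 SE, adjusted p = 1.9e-09), and Lin28b, a block on let-7 maturation, at 32.9, 30.2 and 31.5 FPKM at E12.5 and 11.6, 12.48 and 14.8 FPKM at E16.5 (log2 difference -1.22 ± 0.16 SE, adjusted p = 5.2e-06). Cpa3, a mast cell protease, was at 22.96, 27.4 and 27.3 FPKM at E12.5 and 15.3, 7.95 and 3.89 FPKM at E16.5, with all E16.5 values below the E12.5 range (log2 difference -1.59 ± 0.37 SE, adjusted p = 0.002). Mast cell genes did not fall together. Tpsb2, another mast cell protease, was at 0 FPKM in every E12.5 library and at 18.4, 3.81 and 1.66 FPKM at E16.5 (log2 difference 2.65). Of 8 mast cell, basophil and eosinophil markers that passed the filter 4 rose and 3 fell, and 4 passed only through the E16.5 libraries.

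Depth and a few checks differed between the groups. FPKM summed to between 526535 and 595267 per library, and between 14849 and 15500 genes were above 0. Relative depth was read from the most common ratio of low values between a library and the first E12.5 library. It was taken over genes above 0 in both that averaged under 0.5 FPKM. This put the E16.5 libraries at 0.681 to 0.766 of the depth of the first E12.5 library, and the other E12.5 libraries at 1.05 and 1.12. The absolute depth is not given by FPKM. Xist, the RNA that coats the inactive X chromosome, was at 19.9 to 26.97 FPKM at E12.5 and 45.8 to 72.8 FPKM at E16.5, without overlap but not called (adjusted p = 0.30), and 4 Y-linked genes summed to 30.7 to 47.1 and 32.2 to 63.9 FPKM. With the Y-linked level as a covariate 2361 genes rose and 2021 fell. The part of depth in the results was not tested. Across genes, libraries of 1 group correlated at 0.988 to 0.995 and libraries of different groups at 0.952 to 0.962.

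The defining genes of HSPCs were present at both ages. Summed over 22 marker genes, the level was 1932 to 1982 FPKM at E12.5 and 2100 to 2222 FPKM at E16.5. Kit, the receptor for stem cell factor, was at 134, 125 and 129.8 FPKM at E12.5 and 102, 109 and 139 FPKM at E16.5. The values overlap, and the gene was not called (log2 difference -0.17, adjusted p = 0.19). Of the 21 markers that passed the filter, 7 rose and 0 fell. Procr, an endothelial protein C receptor that marks stem cells, was at 3.41, 4.59 and 4.43 FPKM at E12.5 and 15.6, 14.5 and 18.9 FPKM at E16.5, apart in every library (log2 difference 1.75 ± 0.23 SE, adjusted p = 5e-06). Mecom, a transcription factor of long-term stem cells, rose from 5.36 to 14.6 FPKM (log2 difference 1.29 ± 0.19 SE, adjusted p = 2.4e-05). Flt3, the receptor of multipotent and lymphoid-primed progenitors, rose from 85.95 to 148 FPKM (log2 difference 0.78 ± 0.14 SE, adjusted p = 0.00028).

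Marker genes of other cells also differed, and in bulk RNA fewer cells of a type and less RNA per cell cannot be told apart. Summed over its list, the B-lineage markers stood at 37.2 to 40.3 FPKM at E12.5 and at 250.5, 298.7 and 103.5 FPKM in the 3 E16.5 libraries. Neutrophil markers stood at 810 to 955 FPKM at E12.5 and at 2027, 1282 and 976 FPKM at E16.5, so the third E16.5 library lay just above the E12.5 range. Macrophage markers, at 94.7 to 119 against 188 to 253 FPKM, and erythroid markers, at 157 to 226 against 296 to 340 FPKM, did not overlap. Called higher were 14 of 16 B-lineage, 11 of 16 neutrophil, 11 of 15 macrophage and 14 of 17 erythroid markers that passed the filter, but 11, 7, 7 and 7 of them passed only through the E16.5 libraries. Of the markers at 1 FPKM or more in all 6 libraries, 2 of 4, 3 of 6, 3 of 7 and 5 of 5 were called higher. Called lower were 2 of the 16 neutrophil markers, Cxcr2 among them, and 0 of the B-lineage, macrophage and erythroid markers. Dendritic markers, at 232 to 250 against 337 to 387 FPKM, and T, NK and innate lymphoid markers, at 54.1 to 58.8 against 75.2 to 93.2 FPKM, did not overlap either. Of those at 1 FPKM or more in all 6 libraries, 6 of 10 and 4 of 8 were called higher and 0 lower. Flt3 is in both the HSPC and the dendritic list. Hepatoblast markers did not move together: their sum was 77.9 to 103 against 82.1 to 93.4 FPKM, Alb (albumin) was at 4.18 FPKM at E12.5 and 3.58 FPKM at E16.5, and 2 of the 20 genes were at 0 in all E12.5 libraries. The part of these cells in the results that follow was not tested.

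**Figure D2:**
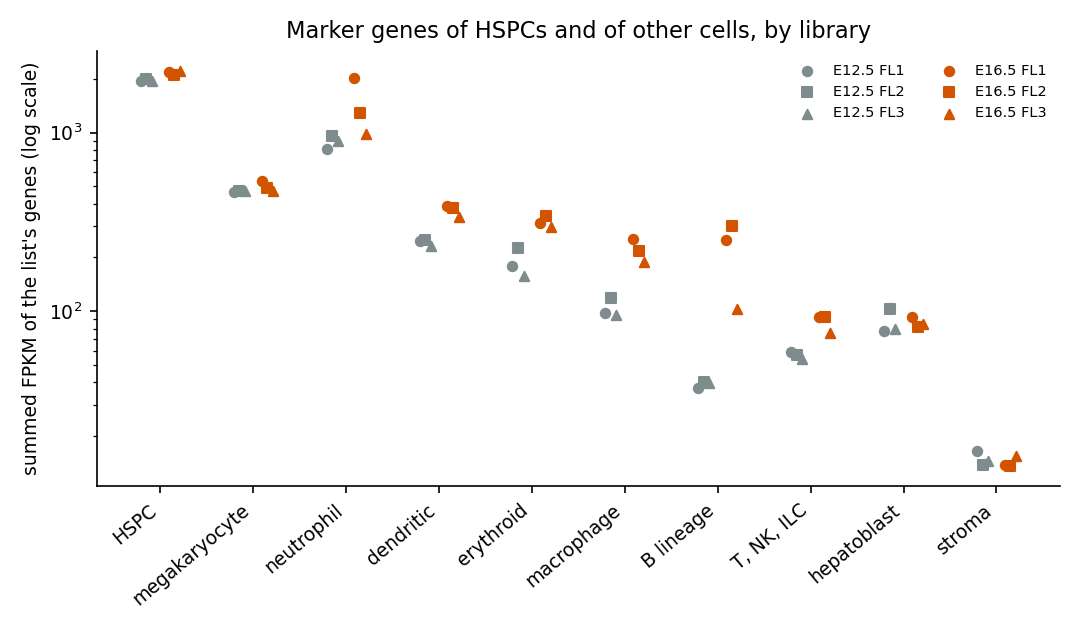
Summed FPKM of the marker genes of 10 cell types on a log axis, 1 point per library, with E12.5 libraries in grey and E16.5 libraries in orange and the marker shape giving the replicate. HSPC and megakaryocyte sums differ little, though without overlap. B-lineage, macrophage, erythroid, dendritic and T, NK and innate lymphoid (ILC) sums lie apart. Of the lists drawn the E16.5 libraries spread widest for B-lineage and neutrophil genes.

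Notch receptors, co-activators and targets rose. The receptors are cleaved when a ligand on a neighbouring cell binds, and the released intracellular part drives target genes together with the DNA-binding protein Rbpj. Of the 22 genes of the Notch list, 13 rose and 1 fell (2 without the first E16.5 library), and of the 19 at 1 FPKM or more in all 6 libraries 11 rose, with a median log2 difference of 0.57 over the 22. Leaving out single libraries left 10 to 13 rises.

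Hes1 (chr16:30065357-30067796 in GRCm38.p6), a transcriptional repressor and the best known Notch target, was at 32.8, 36.4 and 25.8 FPKM at E12.5 and 343, 308 and 328 FPKM at E16.5. Every E16.5 library stood above 300 FPKM and every E12.5 library below 40 FPKM (log2 difference 3.34 ± 0.40 SE, adjusted p = 1.5e-06). Hey1, a related repressor, was at 0.553, 0.426 and 0.530 FPKM at E12.5 and 11.5, 4.996 and 5.48 FPKM at E16.5; it passed the filter only through the E16.5 libraries (log2 difference 2.39). Nrarp, a target that limits the pathway, was at 9.83, 11.9 and 8.65 FPKM at E12.5 and 16.1, 13.7 and 16.1 FPKM at E16.5 (log2 difference 0.56 ± 0.21 SE, adjusted p = 0.045), and its call ended when any of 5 libraries was left out, with log2 differences of 0.46 to 0.63.

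Among receptors, Notch1 (chr2:26457902-26503822) was at 35.1, 32.1 and 35.2 FPKM at E12.5 and 82.4, 85.1 and 77.2 FPKM at E16.5. The groups lay far apart, with the lowest E16.5 value above the highest E12.5 value (log2 difference 1.23 ± 0.17 SE, adjusted p = 7.9e-06). Notch2 rose from 11.8 to 20.8 FPKM (log2 difference 0.77). The ligand Jag2 rose from 6.86 to 13.4 FPKM (log2 difference 0.86 ± 0.21 SE, adjusted p = 0.003), whereas the ligand Jag1 was at 1.21 FPKM at E12.5 and 0.924 FPKM at E16.5 and was not called. All 3 mastermind co-activators rose, with log2 differences of 0.62 for Maml1, 0.74 for Maml2 and 0.62 for Maml3. Rbpj itself was at 32.4, 27.4 and 30.9 FPKM at E12.5 and 29.3, 28.1 and 30.7 FPKM at E16.5, with overlapping groups (log2 difference -0.04, 95% interval -0.21 to 0.14). Adam10, a protease that cuts the receptor, fell from 70.6 to 57.1 FPKM (log2 difference -0.30 ± 0.07 SE, adjusted p = 0.003).

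In the comparison of 8-week with 1-week marrow, which shares no library with the fetal liver groups and in which 10.3% of the 11307 genes were higher and 9.33% lower at 8 weeks, 0 of the 22 Notch genes were higher and 7 were lower. Hes1 was at a mean of 276 FPKM in perinatal marrow, 281 FPKM at 1 week and 59.3 FPKM at 8 weeks. Its spread between libraries at 1 week was wide (SD 153, n = 3). Notch1 was at 47.6 and 27.5 FPKM at 1 and 8 weeks, so that of the 8 fetal liver and marrow groups E16.5 FL had the highest mean.

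**Figure D3:**
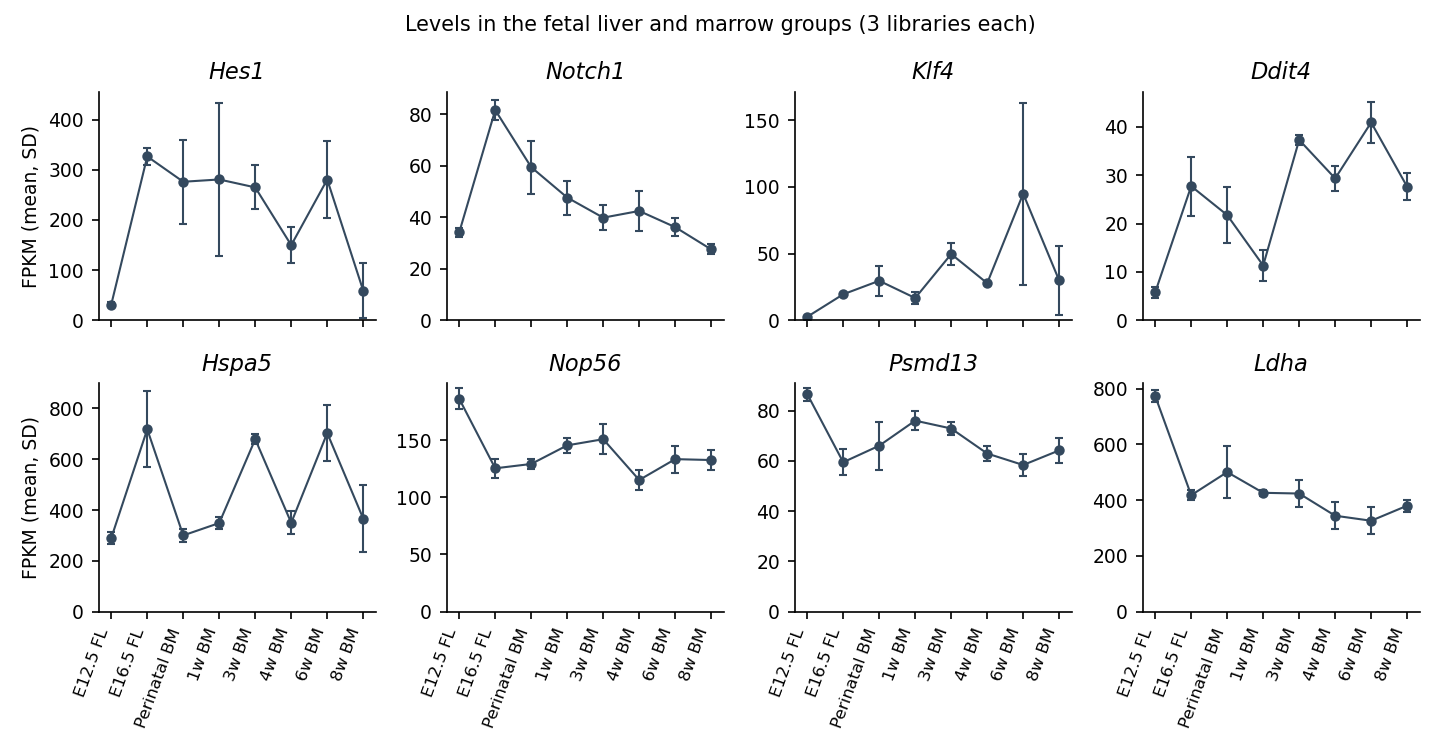
Mean FPKM with SD (n = 3 libraries) of 8 genes in the fetal liver and bone marrow groups, in order of age. Hes1 and Notch1 have their highest mean at E16.5 FL, Nop56, Psmd13 and Ldha their highest at E12.5 FL, and Hspa5 is high in E16.5 FL, 3w BM and 6w BM and low in the groups between.

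Several families of transcription factors that respond quickly to signals rose together. Of 13 Krüppel-like factors, zinc-finger proteins that bind GC-rich promoters, 8 rose and 0 fell (7 of the 11 at 1 FPKM or more in all 6 libraries), and 6 to 7 rises were left without single libraries. Klf4, known from myeloid cells and from reprogramming, was at 2.64, 3.11 and 2.27 FPKM at E12.5 and 19.3, 19.6 and 19.7 FPKM at E16.5, a narrow range in each group (log2 difference 2.49 ± 0.44 SE, adjusted p = 0.00018). Klf10, induced by TGF-beta, rose from 17.3 to 42.2 FPKM (log2 difference 1.25 ± 0.25 SE, adjusted p = 0.00056). Klf2, a factor of quiescent lymphocytes, was at 24.5, 30.9 and 21.5 FPKM at E12.5 and 35.7, 71.5 and 62.8 FPKM at E16.5; the groups did not overlap, but the gene was not called (adjusted p = 0.19).

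In the NF-kappaB list, 11 of 22 genes rose and 1 fell. NF-kappaB dimers are held in the cytoplasm by inhibitors and enter the nucleus upon cytokine or pathogen signals. The subunits moved in 1 direction: Rel rose from 13.2 to 42.05 FPKM (log2 difference 1.62 ± 0.27 SE, adjusted p = 0.0001), Relb from 2.44 to 7.10 FPKM (log2 difference 1.23), Rela from 33.4 to 57.96 FPKM (0.77), Nfkb2 by 0.70 and Nfkb1 by 0.45. The atypical inhibitor Nfkbiz was at 44.9, 37.8 and 30.5 FPKM at E12.5 and 80.1, 79.5 and 86.8 FPKM at E16.5. Its groups were apart (log2 difference 1.12 ± 0.24 SE, adjusted p = 0.00098). Tnf, the cytokine that both activates the pathway and is made by it, went the other way, at 68.98, 73.9 and 48.3 FPKM at E12.5 and 18.5, 24.3 and 38.8 FPKM at E16.5 (log2 difference -1.24 ± 0.25 SE, adjusted p = 0.00059). The kinase genes Chuk, Ikbkb and Ikbkg were not called, with log2 differences of 0.09, 0.02 and 0.15.

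Beside these families stood the early response genes that rise within minutes of stimulation and also during tissue dissociation. Their sum was 1929 to 2463 FPKM at E12.5 and 3465 to 3889 FPKM at E16.5, and 12 of the 20 rose while 0 fell. Nr4a1, an orphan nuclear receptor, was at 127, 158 and 131 FPKM at E12.5 and 428, 426 and 412 FPKM at E16.5 (log2 difference 1.60 ± 0.28 SE, adjusted p = 0.00013). The E16.5 libraries lay close together and all stood above the E12.5 libraries. Fosb, an AP-1 subunit, rose from 12.3 to 86.96 FPKM (log2 difference 2.78 ± 0.29 SE, adjusted p = 2.8e-07). Their part in the rises of Hes1, Klf4, the NF-kappaB genes and the ER stress genes below was not tested. Klf6 of the Krüppel-like factors and Nfkbia of the NF-kappaB list belong to this list too. In the marrow, 11 of the 20 were higher at 8 weeks than at 1 week and 0 were lower.

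**Figure D4:**
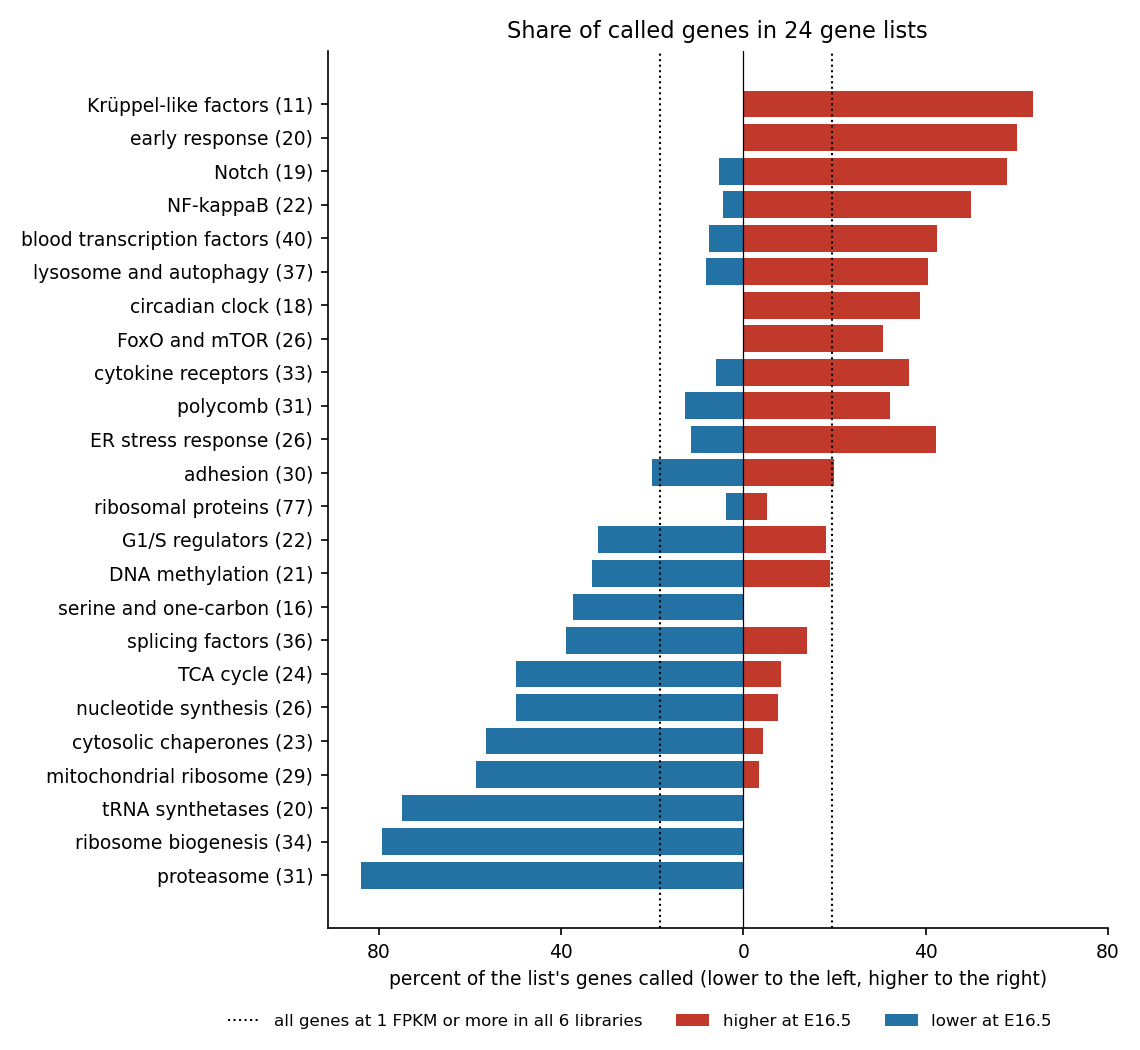
Percent of genes called higher (red, right) or lower (blue, left) at E16.5 in 24 gene lists, counting the genes at 1 FPKM or more in all 6 libraries (number in parentheses); dotted lines give the 19.5% and 18.2% of all such genes. Signalling and transcription factor lists lie to the right, and lists of protein synthesis, folding and degradation to the left, while ribosomal proteins are short on both sides.

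Genes of the ER stress list moved in both directions. When unfolded proteins build up in the ER, the sensors PERK, IRE1 and ATF6 switch on translation control through Atf4, the factor Xbp1 and the chaperones of the organelle. Of 27 genes, 12 rose and 3 fell (11 and 3 of the 26 at 1 FPKM or more in all 6 libraries). Without single libraries, 10 to 12 rises were left. The falls dropped to 1 without the first or the second E12.5 library and to 0 without the third E16.5 library.

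Ddit3 (CHOP), a factor downstream of PERK, was at 23.4, 23.8 and 21.8 FPKM at E12.5 and 94.7, 65.6 and 47.7 FPKM at E16.5. It was lowest in the third of the E16.5 libraries, and still above all E12.5 libraries (log2 difference 1.498 ± 0.32 SE, adjusted p = 0.00094). Atf4 rose from 179.6 to 341 FPKM (log2 difference 0.90 ± 0.14 SE, adjusted p = 3.7e-05), and Ppp1r15a, which reverses the translation block, from 55.4 to 104 FPKM (log2 difference 0.90). Xbp1 rose from 22.9 to 42.3 FPKM (0.85) and its target Dnajb9, an ER co-chaperone, from 30.1 to 72.3 FPKM (log2 difference 1.22 ± 0.14 SE, adjusted p = 9.5e-07). Herpud1, of ER-associated degradation, rose from 25.3 to 57.9 FPKM (1.14). Asns, an amino acid enzyme that Atf4 is known to induce, was at 18.7, 19.99 and 21.3 FPKM at E12.5 and 22.6, 19.2 and 17.9 FPKM at E16.5 and was not called (log2 difference -0.01, 95% interval -0.31 to 0.30).

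Hspa5 (BiP), the main ER chaperone, was at 278, 318 and 273 FPKM at E12.5 and 845, 757 and 553 FPKM at E16.5. All E16.5 values were above the E12.5 range (log2 difference 1.29 ± 0.17 SE, adjusted p = 8.2e-06). Other chaperones and folding enzymes of the organelle, apart from the co-chaperone gene Dnajb9 above, did not rise with it. Hsp90b1 was at 219 FPKM at E12.5 and 172 FPKM at E16.5 (log2 difference -0.34, adjusted p = 0.036), Pdia4 at 57.2 FPKM at E12.5 and 44.1 FPKM at E16.5 (-0.37, adjusted p = 0.029) and Pdia6 at 151 FPKM at E12.5 and 111 FPKM at E16.5 (-0.44, adjusted p = 0.016), all lower at E16.5. The calls of Hsp90b1 and Pdia4 ended without any of 4 libraries, and that of Pdia6 without the third E16.5 library (log2 difference -0.37). Calr, Canx, Pdia3, Hyou1 and Manf were not called, with log2 differences of 0.06, -0.20, -0.23, -0.27 and -0.05. Across ages Hspa5 was not monotonic, with means of 718 FPKM in E16.5 FL, 299.99 in perinatal marrow, 349 at 1 week, 679 at 3 weeks, 349.5 at 4 weeks, 703 at 6 weeks and 366 at 8 weeks.

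Genes with a shared promoter element moved in both directions. The ER stress element, a CCAAT box followed after 9 bases by CCACG, was searched on both strands of RefSeq promoters (GRCm38.p6, 250 bases before to 50 after the start) and contains the CCAAT box, which was also searched. It was found in 8 of the 24 promoters of the ER stress list (33.3%), in 13 of 8700 member promoters (0.149%) and in 35 of 27025 promoters in all (0.130%). Of the 8 genes, Hspa5 and Syvn1 rose, Hsp90b1 and Pdia6 fell, and Calr, Canx, Dnajc3 and Creld2 were not called. The promoters of the gene of this group that rose most, Hspa5 (chr2:34771840-34772139, plus strand), and of the one that fell most, Pdia6 (chr12:17266339-17266638, plus strand), are shown to set the element side by side, with the match in capitals.
Hspa5: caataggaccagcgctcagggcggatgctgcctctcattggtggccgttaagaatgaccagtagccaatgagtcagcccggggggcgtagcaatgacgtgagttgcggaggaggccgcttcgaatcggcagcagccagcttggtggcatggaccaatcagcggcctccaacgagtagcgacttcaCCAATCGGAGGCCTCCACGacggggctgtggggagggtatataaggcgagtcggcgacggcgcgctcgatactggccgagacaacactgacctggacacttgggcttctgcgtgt
Pdia6: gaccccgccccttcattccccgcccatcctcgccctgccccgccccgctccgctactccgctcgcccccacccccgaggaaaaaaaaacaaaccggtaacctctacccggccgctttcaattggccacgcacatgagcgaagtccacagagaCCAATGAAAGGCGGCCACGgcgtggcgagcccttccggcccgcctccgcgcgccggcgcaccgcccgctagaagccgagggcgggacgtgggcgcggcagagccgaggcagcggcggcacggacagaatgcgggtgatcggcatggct
The match begins 65 bases before the start of Hspa5 and 98 bases before that of Pdia6.

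**Figure D5:**
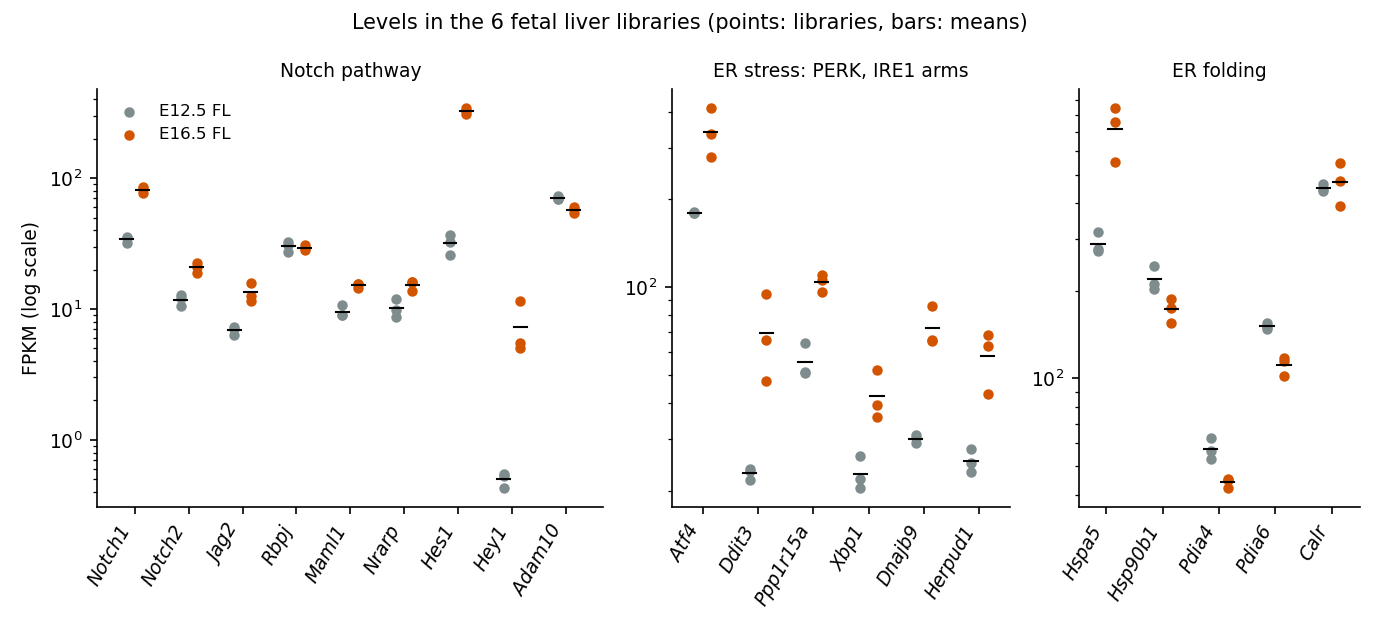
FPKM on a log axis in each of the 3 E12.5 (grey) and 3 E16.5 (orange) libraries, with bars at the means, for 9 Notch pathway genes, 6 genes of the PERK and IRE1 arms and 5 ER folding genes. Hes1, Hey1, Notch1 and the PERK and IRE1 genes stand apart upward, while Rbpj and Calr overlap and Adam10, Hsp90b1, Pdia4 and Pdia6 lie lower at E16.5.

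Many cytosolic and mitochondrial chaperones fell. These proteins fold newly made and imported polypeptides. Of 24 genes, 14 fell and 1 rose (13 and 1 of the 23 at 1 FPKM or more in all 6 libraries), and 11 to 13 falls were left without single libraries. Hspd1, the mitochondrial HSP60, was at 420.4, 428 and 414 FPKM at E12.5 and 269, 282 and 253 FPKM at E16.5. No E16.5 value reached the E12.5 range (log2 difference -0.65 ± 0.10 SE, adjusted p = 2.9e-05). Hsph1, an HSP110 chaperone, fell from 56.4 to 29.3 FPKM (log2 difference -0.92 ± 0.17 SE, adjusted p = 0.00031), Bag3, a co-chaperone, from 4.83 to 1.83 FPKM (log2 difference -1.03 ± 0.14 SE, adjusted p = 1.2e-05), and the cytosolic chaperonin subunits Cct3, Cct5 and Tcp1 by 0.42, 0.31 and 0.32 on the log2 scale. Hspa1a, the inducible HSP70, was at 11.4, 40.05 and 29.5 FPKM at E12.5 and 2.39, 16.99 and 6.998 FPKM at E16.5, with overlapping groups, and its call ended without any of 3 libraries; its near-identical neighbour Hspa1b makes its level uncertain. Dnajb4 was the single gene of the list that rose, from 13.4 to 22.96 FPKM (log2 difference 0.74).

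Genes that build ribosomes fell, while few ribosomal protein genes were called. Of 34 ribosome biogenesis genes, all at 1 FPKM or more in all 6 libraries, 27 fell and 0 rose, with a median log2 difference of -0.41, against 18.2% falling among all such genes. Leaving out single libraries left 20 to 26 falls. Nop56, a core protein of the snoRNPs that methylate ribosomal RNA, was at 195, 187 and 177 FPKM at E12.5 and 122, 135 and 119.6 FPKM at E16.5. The groups were well apart (log2 difference -0.57 ± 0.08 SE, adjusted p = 9.5e-06). Nop16 fell from 59.7 to 36.8 FPKM (log2 difference -0.68 ± 0.09 SE, adjusted p = 1e-05), Nop2, a ribosomal RNA methyltransferase, from 55.8 to 37.2 FPKM (log2 difference -0.57), Gar1, of the pseudouridylating H/ACA particles, from 84.2 to 52.2 FPKM (-0.69), and Npm1, the abundant nucleolar nucleophosmin, from 1856 to 1345 FPKM (-0.47). Polr1b, a subunit of RNA polymerase I, fell by 0.45 on the log2 scale, whereas Polr1a was at 25.5 FPKM at E12.5 and 24.3 FPKM at E16.5 and Ddx21 at 89.3 FPKM at E12.5 and 84.9 FPKM at E16.5, neither called.

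Of the 77 ribosomal protein genes, by contrast, 4 rose and 3 fell, with a median log2 difference of 0.08. Rpl4 was at 1993, 2161 and 1951 FPKM at E12.5 and 2184, 2022 and 1933 FPKM at E16.5. The groups overlap (log2 difference 0.01, 95% interval -0.18 to 0.20). The 3 that fell, Rpl26, Rpl30 and Rpl34, have near-identical copies elsewhere and are uncertain. Copies were not examined for these 3 genes, nor for the 4 that rose. The number of rises was 1 without the first or the third E12.5 or the first E16.5 library. It was 2 without the second E16.5 library and 8 without the third. Rps27, which also has a near-identical copy, was picked out after its values were seen. It was at 1712, 181 and 1838 FPKM at E12.5 and 12.9, 11.4 and 269.5 FPKM at E16.5, and its copy Rps27rt was at 459, 2971 and 485 FPKM at E12.5 and 4148, 3349 and 2637 FPKM at E16.5. The second E12.5 library was low in the first entry and high in the other, as the E16.5 libraries were. Summed, the 2 entries were at 2172, 3151 and 2323 FPKM at E12.5 and at 4161, 3361 and 2907 FPKM at E16.5, and neither was called.

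The aminoacyl-tRNA synthetases, which load amino acids onto transfer RNAs, fell in 15 of 20 cases and rose in 0, with a median log2 difference of -0.37 and 14 falls without each single library. Rars, for arginine, was at 69.4, 68.9 and 69.8 FPKM at E12.5 and 41.8, 48.9 and 42.3 FPKM at E16.5. Its groups were far apart relative to their spread (log2 difference -0.64 ± 0.09 SE, adjusted p = 1.3e-05). Sars fell from 38.04 to 26.3 FPKM (log2 difference -0.51 ± 0.07 SE, adjusted p = 1e-05) and Hars from 51.95 to 36.7 FPKM (log2 difference -0.49). Qars, for glutamine, was at 86.3 FPKM at E12.5 and 86.2 FPKM at E16.5 and Vars, for valine, at 130.3 FPKM at E12.5 and 125 FPKM at E16.5, neither called.

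The proteasome, which degrades ubiquitin-tagged proteins, showed the highest share of falls among the lists drawn. Of 31 subunit genes, 26 fell and 0 rose, with a median log2 difference of -0.37; 16 to 24 falls were left without single libraries, the fewest without the third E16.5 library. Psmd13, of the regulatory lid, was at 84.9, 85.5 and 89.6 FPKM at E12.5 and 63.2, 61.6 and 53.7 FPKM at E16.5. No value was shared between the groups (log2 difference -0.54 ± 0.09 SE, adjusted p = 0.00011). Psmc5, an ATPase of the base, fell from 104 to 68.5 FPKM (log2 difference -0.60 ± 0.11 SE, adjusted p = 0.00019) and Psma4, of the core ring, from 202 to 135 FPKM (log2 difference -0.58 ± 0.11 SE, adjusted p = 0.00047). Psmb1, Psmb2, Psmb4, Psma7 and Psmc6 were not called, with log2 differences between -0.33 and -0.12.

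Falls in the mitochondrial ribosome and in central metabolism were smaller and rested more on single libraries. In the list of mitochondrial ribosome and DNA upkeep genes 17 of 29 fell and 1 rose (0 without any of 3 libraries), and 9 to 16 fell without single libraries, the fewest without the second E12.5 library. Mrpl12 was at 125, 138 and 127 FPKM at E12.5 and 88.4, 87.1 and 79.4 FPKM at E16.5, with no overlap (log2 difference -0.61 ± 0.11 SE, adjusted p = 0.00014). Mrpl18, of the same large subunit, fell from 99.4 to 62.1 FPKM (log2 difference -0.67 ± 0.14 SE, adjusted p = 0.001). Of 24 genes of the tricarboxylic acid cycle and pyruvate entry, 12 fell and 2 rose (1 without the third E12.5 or the first E16.5 library), with 6 to 9 falls without single libraries and the fewest again without the second E12.5 library. The 2 that rose were Pdk2, from 4.58 to 11.3 FPKM (log2 difference 1.13 ± 0.17 SE, adjusted p = 3.3e-05), and Pdk3, by 0.22 on the log2 scale, kinases that switch off pyruvate dehydrogenase; the gene of its catalytic subunit, Pdha1, fell from 124 to 97.6 FPKM (log2 difference -0.34 ± 0.06 SE, adjusted p = 0.00022).

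In nucleotide synthesis 13 of 26 genes fell and 2 rose (1 without the first E16.5 library). Ppat, the first committed enzyme of purine synthesis, was at 48.4, 44.99 and 47.7 FPKM at E12.5 and 32.2, 32.5 and 31.8 FPKM at E16.5. Its groups were apart (log2 difference -0.53 ± 0.08 SE, adjusted p = 2.7e-05). Rrm2, the ribonucleotide reductase subunit that limits deoxynucleotide supply, fell from 84.4 to 54.5 FPKM (log2 difference -0.63 ± 0.10 SE, adjusted p = 7.8e-05), and Ctps, of CTP synthesis, from 42.2 to 29.3 FPKM (log2 difference -0.51). Impdh1, of guanine nucleotide synthesis, rose from 20.5 to 40.6 FPKM (log2 difference 0.96 ± 0.08 SE, adjusted p = 1.6e-08). The serine enzyme Psat1 fell from 130.04 to 92.6 FPKM (log2 difference -0.49 ± 0.07 SE, adjusted p = 3.7e-05). The lactate exporter gene Slc16a3 fell from 18.9 to 5.66 FPKM (log2 difference -1.59 ± 0.15 SE, adjusted p = 8.9e-08), and Actb, for beta-actin, from 2046 to 1214 FPKM (log2 difference -0.75 ± 0.09 SE, adjusted p = 1.3e-06).

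Myc, whose product is known to drive ribosome and nucleotide genes, was at 102, 112 and 104 FPKM at E12.5 and 58.5, 62.96 and 66.3 FPKM at E16.5. The E16.5 values were all below the E12.5 values (log2 difference -0.75 ± 0.13 SE, adjusted p = 0.00012). Its antagonists rose: Mxd1 from 8.23 to 22.5 FPKM (log2 difference 1.33 ± 0.22 SE, adjusted p = 0.0001), Mxi1 from 8.76 to 13.9 FPKM (log2 difference 0.61 ± 0.09 SE, adjusted p = 1.7e-05) and Mxd3 from 1.27 to 3.06 FPKM (log2 difference 0.82), 5 of the 12 genes of the Myc family list in all. In the marrow, 2 of 34 ribosome biogenesis genes, 3 of 20 tRNA synthetases and 8 of 31 proteasome genes were lower at 8 weeks than at 1 week, and 1, 0 and 0 were higher.

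The 8-base ETS site CCGGAAGT, which overlaps no other motif searched, was sought on both strands of the same promoters. It was present in 9.09% of the 8700 member promoters and in 4.00% of all 27025 promoters. It was present in 13.4% of the 1551 promoters of genes that fell (208), in 4.92% of the 1789 of genes that rose (88) and in 9.24% of those not called. Among genes changed at least 2-fold it was in 4 of 57 that fell (7.02%) and 4 of 285 that rose (1.40%), so the largest falls did not have the highest share. As the called genes differed in level, the shares were also taken within levels, and none of these differences was tested. Between 20 and 100 FPKM they were 16.8% of genes that fell, 7.0% of those that rose and 10.1% of those not called, and between 5 and 20 FPKM 13.2%, 4.53% and 10.2%. Between 1 and 5 FPKM they were 3.70%, 3.57% and 6.06%. At 100 FPKM or more they were 12.1%, 2.5% (2 of 80 promoters) and 10.4%, so genes that fell were there close to those not called. The GC content of the sets was alike, at 60.6% for genes that fell and 62.1% for those that rose.

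Within the lists, the ETS site was in 7 of 29 ribosome biogenesis promoters (24.1%), 6 of 26 of the mitochondrial ribosome (23.1%) and 5 of 25 of the proteasome (20%). In the other falling lists searched it was in 1 of 12 tRNA synthetase promoters (8.33%) and 2 of 18 chaperone promoters (11.1%), near the share of all members, and it was in 0 of 16 Notch and 0 of 10 Krüppel-like factor promoters. The E-box CACGTG, the sequence bound by Myc and its partners, was in 7 of the 29 ribosome biogenesis promoters (24.1%) and 4 of 12 of the tRNA synthetases (33.3%), against 10.7% of member promoters and 7.24% of all. In other lists that fell, the E-box was in 1 of 25 proteasome (4%), 2 of 26 mitochondrial ribosome (7.69%) and 3 of 18 chaperone promoters (16.7%). In lists that rose it was in 3 of 10 Krüppel-like factor (30%), 3 of 16 Notch (18.8%), 2 of 18 early response (11.1%) and 1 of 18 NF-kappaB promoters (5.56%). The ER stress list, which moved in both directions, had it in 2 of 24 (8.33%). Over all members the E-box was in 12.2% of promoters of genes that fell, 9.95% of those that rose and 10.6% of those not called. A match describes the letters only and shows no binding. The promoter of the gene with the largest fall among the ETS carriers of each list is shown, for Psmd13 (chr7:140882144-140882443, plus strand), Mrpl18 (chr17:12916042-12916341, minus strand) and Gar1 (chr3:129831347-129831646, minus strand), with that of the E-box carrier Nop2 (chr6:125131633-125131932, plus strand); each reads along the gene's strand with the match in capitals.
Psmd13: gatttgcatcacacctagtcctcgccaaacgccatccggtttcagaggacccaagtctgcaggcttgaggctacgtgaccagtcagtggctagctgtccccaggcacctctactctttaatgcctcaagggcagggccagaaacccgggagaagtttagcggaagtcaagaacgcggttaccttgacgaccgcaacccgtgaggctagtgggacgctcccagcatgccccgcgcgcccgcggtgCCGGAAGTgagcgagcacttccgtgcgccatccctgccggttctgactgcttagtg
Mrpl18: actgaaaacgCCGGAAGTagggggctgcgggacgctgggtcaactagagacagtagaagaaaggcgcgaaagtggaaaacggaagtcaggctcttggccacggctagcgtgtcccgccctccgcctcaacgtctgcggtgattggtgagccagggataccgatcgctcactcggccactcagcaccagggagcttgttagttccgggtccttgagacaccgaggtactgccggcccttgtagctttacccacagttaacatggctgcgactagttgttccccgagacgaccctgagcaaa
Gar1: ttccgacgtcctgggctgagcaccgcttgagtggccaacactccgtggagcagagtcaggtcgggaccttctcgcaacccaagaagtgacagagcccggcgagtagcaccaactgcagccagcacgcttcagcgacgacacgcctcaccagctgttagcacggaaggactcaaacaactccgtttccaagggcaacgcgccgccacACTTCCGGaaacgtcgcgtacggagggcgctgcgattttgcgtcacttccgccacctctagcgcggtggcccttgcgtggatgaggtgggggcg
Nop2: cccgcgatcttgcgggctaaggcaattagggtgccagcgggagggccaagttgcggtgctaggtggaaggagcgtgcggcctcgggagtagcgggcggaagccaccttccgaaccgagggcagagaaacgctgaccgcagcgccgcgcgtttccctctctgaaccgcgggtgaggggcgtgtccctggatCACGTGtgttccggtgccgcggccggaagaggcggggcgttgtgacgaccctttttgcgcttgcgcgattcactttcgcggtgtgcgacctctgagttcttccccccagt
The ETS match begins 6 bases before the start of Psmd13, 240 before that of Mrpl18 and, on the other strand, 44 before that of Gar1, and the E-box 60 before that of Nop2.

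Some genes of nutrient signalling rose. Of 27 genes of the FoxO and mTOR list, 9 rose and 0 fell. Ddit4 (REDD1), an inhibitor of mTORC1, was at 6.01, 6.79 and 4.56 FPKM at E12.5 and 32.1, 30.3 and 20.8 FPKM at E16.5. The lowest E16.5 value was several times the highest E12.5 value (log2 difference 2.07 ± 0.17 SE, adjusted p = 1.4e-08). Txnip, which limits glucose uptake, rose from 67.8 to 203 FPKM (log2 difference 1.57 ± 0.17 SE, adjusted p = 3.9e-07). Irs2, the insulin receptor substrate, was at 1.05, 0.943 and 0.970 FPKM at E12.5 and 11.2, 8.97 and 7.72 FPKM at E16.5 (log2 difference 2.36 ± 0.26 SE, adjusted p = 5.7e-07), and Foxo1 rose from 9.70 to 19.3 FPKM (log2 difference 0.91). Of the lysosome and autophagy list 16 of 38 rose and 3 fell. Among the rises were Psap, the saposin precursor, from 129.6 to 219 FPKM (log2 difference 0.75 ± 0.08 SE, adjusted p = 7.4e-07), Grn, progranulin, from 17.3 to 30.7 FPKM (0.80), and the autophagy receptor Sqstm1 from 73.5 to 141 FPKM (0.92). The glucuronidase gene Gusb fell from 78.2 to 51.00 FPKM (log2 difference -0.61 ± 0.07 SE, adjusted p = 1.3e-06). Macrophage markers were higher as well, as given above, and their part in the lysosomal rises was not tested.

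Receptors for homing and for cytokines changed in both directions. Cxcr4, the receptor for the marrow chemokine Cxcl12, was at 10.95, 11.3 and 9.13 FPKM at E12.5 and 39.7, 42.4 and 22.1 FPKM at E16.5. The third E16.5 library was the lowest of its group and still above every E12.5 library (log2 difference 1.59 ± 0.24 SE, adjusted p = 2.7e-05). S1pr1, the sphingosine phosphate receptor of egress, rose from 15.8 to 36.2 FPKM (log2 difference 1.14 ± 0.24 SE, adjusted p = 0.00084) and the prostaglandin receptor Ptger4 from 6.46 to 15.9 FPKM (log2 difference 1.18 ± 0.12 SE, adjusted p = 2.8e-07). Cxcr2, the receptor for neutrophil chemokines, went from 5.78 to 1.11 FPKM (log2 difference -1.69 ± 0.21 SE, adjusted p = 2.4e-06). The integrin pair of megakaryocytes fell, Itga2b from 15.2 to 7.53 FPKM (log2 difference -0.93 ± 0.22 SE, adjusted p = 0.002) and Itgb3 from 4.42 to 1.52 FPKM (log2 difference -1.11 ± 0.16 SE, adjusted p = 2.5e-05). The megakaryocyte list as a whole had 6 rises and 3 falls among 19 genes, with Slc14a1, Vwf and Gp9 higher by 1.79, 1.55 and 0.73 on the log2 scale.

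Of 34 cytokine and growth factor receptors 12 rose and 3 fell; the falls were 1 without the second E12.5 or the first E16.5 library and 5 without the third E16.5 library. Igf2r, the receptor that clears Igf2, rose from 4.02 to 10.2 FPKM (log2 difference 1.14 ± 0.15 SE, adjusted p = 6.9e-06), and Csf2rb2, a beta chain of the interleukin 3 receptor, from 1.74 to 5.51 FPKM (log2 difference 1.24 ± 0.20 SE, adjusted p = 6.1e-05). Its paralogue Csf2rb rose by 0.70 on the log2 scale, and reads shared by this pair make the split between them uncertain. In the TGF-beta and BMP list 9 of 27 rose and 3 fell. Smad7, an inhibitor of TGF-beta signalling, was at 8.30, 6.65 and 6.96 FPKM at E12.5 and 38.2, 28.3 and 29.7 FPKM at E16.5. The groups were far apart (log2 difference 1.99 ± 0.25 SE, adjusted p = 3.6e-06). The co-repressor Tgif1 rose from 20.3 to 43.02 FPKM (log2 difference 1.05 ± 0.19 SE, adjusted p = 0.00019), and the activin receptor Acvr1b fell from 22.9 to 13.3 FPKM (log2 difference -0.75 ± 0.13 SE, adjusted p = 0.00011).

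Among 43 transcription factors of blood formation, 18 rose and 4 fell; the falls were 1 without the second or the third E12.5 or the first E16.5 library and 2 without the second E16.5 library. Gfi1, a repressor of stem cells and granulocytes, was at 10.7, 12.47 and 11.5 FPKM at E12.5 and 23.2, 28.3 and 28.7 FPKM at E16.5. Every E16.5 value was above the E12.5 values (log2 difference 1.14 ± 0.13 SE, adjusted p = 1.2e-06). Runx3 rose from 19.98 to 42.5 FPKM (log2 difference 1.05 ± 0.18 SE, adjusted p = 0.00012), Nfic from 5.30 to 12.03 FPKM (log2 difference 1.04 ± 0.10 SE, adjusted p = 6.6e-08) and Nfix from 7.62 to 13.6 FPKM (log2 difference 0.76 ± 0.09 SE, adjusted p = 1.1e-06). Zbtb16 (PLZF) went from 3.57 to 1.09 FPKM (log2 difference -1.14 ± 0.24 SE, adjusted p = 0.00079). Several factors that define HSPCs were not called: Runx1 was at 74.96 FPKM at E12.5 and 79.6 FPKM at E16.5, Tal1 at 23.4 FPKM at E12.5 and 20.9 FPKM at E16.5, Gata2 at 44.4 FPKM at E12.5 and 39.3 FPKM at E16.5 and Myb at 144 FPKM at E12.5 and 154 FPKM at E16.5. Beside the rises, B-lineage and neutrophil markers were higher as given above, and their part was not tested.

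Regulators of cell death were split. Of 15 genes of the BCL2 family, which decides whether mitochondria release the signals of apoptosis, 6 rose and 6 fell, with 3 falls left without the first E16.5 library. Mcl1, a survival protein, was at 133, 136 and 133 FPKM at E12.5 and 292, 208 and 198 FPKM at E16.5. Its groups did not overlap (log2 difference 0.77 ± 0.16 SE, adjusted p = 0.00083). Bcl2l11 (BIM), a death activator, rose from 13.8 to 31.4 FPKM (log2 difference 1.11 ± 0.23 SE, adjusted p = 0.0008), while Pmaip1 (NOXA), which opposes Mcl1, fell from 18.95 to 9.89 FPKM (log2 difference -0.88 ± 0.26 SE, adjusted p = 0.012) and the effector Bax from 67.7 to 47.8 FPKM (log2 difference -0.49). Among 22 targets of p53, 7 rose and 7 fell, with Trp53inp1 at a log2 difference of 0.85 and Phlda3 at -0.44.

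In the Wnt list 7 of 23 genes rose (30.4%, against 20.8% of all members) and 0 fell. Of the 21 at 1 FPKM or more in all 6 libraries 5 rose, near the 19.5% of all such genes. Lef1, a DNA-binding partner of beta-catenin that is also active in early B cells, was at 0.0794, 0.0339 and 0.0741 FPKM at E12.5 and 5.75, 6.59 and 1.83 FPKM at E16.5. The third E16.5 library was the lowest of its group, and the gene passed the filter only through the E16.5 libraries (log2 difference 2.31 ± 0.23 SE, adjusted p = 1.4e-07). The receptor gene Fzd4 rose from 1.81 to 6.82 FPKM (log2 difference 1.47 ± 0.13 SE, adjusted p = 1.8e-08). Ctnnb1, for beta-catenin itself, was at 177 FPKM at E12.5 and 166 FPKM at E16.5 (log2 difference -0.09, adjusted p = 0.35). The B-lineage markers were lowest in the same library among the E16.5 libraries, and their part in the rise of Lef1 was not tested.

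Of 18 clock genes 7 rose and 0 fell. Per1, a repressor of the clock that also responds to glucocorticoids, was at 18.1, 16.95 and 18.1 FPKM at E12.5 and 64.6, 53.3 and 52.2 FPKM at E16.5. The groups were apart (log2 difference 1.62 ± 0.20 SE, adjusted p = 2.3e-06). Rora, an activator of the loop, rose from 1.78 to 5.82 FPKM (log2 difference 1.29 ± 0.20 SE, adjusted p = 4.3e-05). The core factors were not called: Clock was at 2.44 FPKM at E12.5 and 3.11 FPKM at E16.5 (log2 difference 0.26), and Arntl at 5.22 FPKM at E12.5 and 5.62 FPKM at E16.5 (log2 difference 0.08).

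Of 23 genes of haem synthesis and iron handling 8 rose and 1 fell (0 without the second or the third E12.5 or the third E16.5 library). Tfrc, the transferrin receptor that brings iron into the cell, was at 28.5, 28.5 and 27.3 FPKM at E12.5 and 47.4, 50.3 and 39.7 FPKM at E16.5. It was higher in every E16.5 library (log2 difference 0.68 ± 0.11 SE, adjusted p = 7.4e-05). Fech, the last enzyme of haem synthesis, rose from 6.58 to 11.6 FPKM (log2 difference 0.73 ± 0.11 SE, adjusted p = 3.7e-05). The erythroid markers were higher as well, as given above, and their part was not tested.

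Several chromatin genes moved by modest amounts. Dnmt3b, a de novo DNA methyltransferase, was at 157, 143 and 163 FPKM at E12.5 and 87.7, 98.04 and 108 FPKM at E16.5. It was lower in all E16.5 libraries (log2 difference -0.66 ± 0.12 SE, adjusted p = 0.00016). Uhrf1 and Dnmt1, which copy methylation after replication, fell by 0.39 and 0.29 on the log2 scale, and 7 of 21 DNA methylation genes fell and 4 rose. Smarca2, an ATPase of the SWI/SNF remodeller, rose from 10.7 to 21.4 FPKM (log2 difference 0.93 ± 0.11 SE, adjusted p = 1.1e-06) and Arid1b from 12.6 to 24.8 FPKM (log2 difference 0.92). Kpna2, an importin that carries proteins into the nucleus, was at 153, 145 and 142 FPKM at E12.5 and 56.99, 62.3 and 57.5 FPKM at E16.5 (log2 difference -1.30 ± 0.11 SE, adjusted p = 1.8e-08). The groups were far apart.

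Some abundant genes hardly moved. The 5 with the narrowest 95% interval around 0 among those at 100 FPKM or more were Rhoa, Rtn3, Gnai2, Bzw1 and Ppp2r1a. Rhoa, a small GTPase of the actin cytoskeleton, was at 219.5, 226 and 219 FPKM at E12.5 and 239, 226 and 205 FPKM at E16.5 (log2 difference 0.01, 95% interval -0.10 to 0.11). Over all members, the 95% interval lay within 0.5 of 0 on the log2 scale for 5777 genes (51.1%).

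Between 1 and 8 weeks in the marrow, genes that had risen in the fetal liver were higher in 379 of 2352 cases (16.1%) and lower in 217 (9.23%). Genes that had fallen were higher in 162 of 2015 cases (8.04%) and lower in 264 (13.1%). Across the 11307 genes, which are not independent replicates, the log2 differences of the comparisons correlated at -0.01 (Pearson) and 0.12 (Spearman).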

How the data were processed

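Per the labels' protocols, TriPure was used to extract RNA and the TruSeq kit of Illumina to prepare libraries. Trim Galore, FastQC, STAR 2.7, HTSeq 0.6.1p1 and the build GRCm38 are named in the submitters' processing notes. FPKM values were taken as deposited by the authors; the tool that computed them is not given in the sources used here. FPKM give no counts, so the absolute depth is unknown.

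From these values, log2(FPKM + 1) was fitted by limma 3.58.1 (R 4.3.3; moderated with a mean-variance trend), using 1 mean for each of 9 groups over 27 libraries and 18 residual degrees of freedom. Tested were the 13350 genes at 1 FPKM or more in at least 3 libraries, with Benjamini-Hochberg adjustment over all of them and a threshold of 0.05. The script was tested on simulated data made from these libraries, for E16.5 FL against E12.5 FL. It recovered 60.5% of 200 genes changed by 0.5 on the log2 scale (13480 genes fitted) and 97.5% of 200 changed by 1 (13500 fitted). The changed genes were drawn from members at a mean of 5 FPKM or more in the fetal liver libraries, so recovery of lower genes was not measured. All other genes were set equal in E16.5 FL and E12.5 FL, whereas 2352 and 2015 genes were called higher and lower in the data. The adjustment for multiple tests was therefore stricter in the simulation, and its recovery does not carry over to the data. Python 3.11.15 with numpy 2.4.6, pandas 2.3.3 and matplotlib 3.10.9 was used for lists, promoters and figures. RefSeq promoters (GRCm38.p6) were matched by symbol for 8700 of the 11307 genes.

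The members, the 55 gene lists and the comparison were chosen with earlier results of these data known, so counts over a list are descriptions and no list was tested. The naming rule took the 15 largest changes in each direction at 10 FPKM or more in the higher group, the 10 largest at 100 FPKM or more in both groups, up to 4 genes with the smallest adjusted p in each list, markers of each cell type, genes that went from under 0.5 to 5 FPKM or more, and the 5 abundant genes that moved least. Genes outside it, among them list members that were not called and several of the called ones, were picked with their values known. The ER stress element and the sum of Rps27 and Rps27rt were also added after the data were seen. Genes known by clone numbers and pseudogenes were not named. The text names only part of the genes this rule took, and a few are not reported here.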

Additional observations from a re-analysis of the deposited data

How the results depend on the processing

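Under 15 alternatives no gene called in the fit of all libraries was called in the opposite direction. Counts of higher and lower genes at E16.5 were 2343 and 1960 with a pseudocount of 0.1, 2059 and 1685 with no filter, 2245 and 2176 with median-of-ratios scaling, and 2541 and 2222 in a fit of only the 6 fetal liver libraries. Without single libraries they ran from 1879 to 2095 and from 1474 to 1718. Of 596 called genes that could be named, 74 to 106 then lost their call. The falls in the ER stress list numbered 1 with no filter, 5 with median-of-ratios scaling and 7 with only the 6 fetal liver libraries, against 3.

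No pairing of the samples by replicate number was seen: deviations of same-numbered libraries correlated at -0.07, 0.02 and 0.09, and only the third E16.5 library correlated best with its own number. With deviations taken from means of 3 libraries, this check cannot exclude a pairing. With a replicate block 2353 genes were higher and 1997 lower. The share of promoters with the ETS site ran from 4.31% to 4.63% for genes that rose and from 12.6% to 14.1% for genes that fell without single libraries. Depth limits low genes, for which counting error cannot be separated from other spread, and 3 libraries a group left changes of about 0.5 on the log2 scale only partly detectable.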

Other observations

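Histone, Hox and imprinted genes were among the other families that changed. Of 43 replication-dependent histone genes 20 rose and 0 fell, and of the 22 at 1 FPKM or more in all 6 libraries 10 rose, with 14 to 20 rises without single libraries. These genes are near-identical copies in clusters, so reads may be split between them and each level is uncertain. Hist1h1e, a linker histone, was at 1.58, 0.895 and 0.924 FPKM at E12.5 and 3.09, 3.98 and 2.88 FPKM at E16.5. Its groups did not overlap (limma, log2 difference 1.02 ± 0.33 SE, adjusted p = 0.020). Among 11 Hox genes, patterning factors that are also active in stem cells, 6 rose and 0 fell, with 4 to 5 rises left without single libraries. Of the 9 at 1 FPKM or more in all 6 libraries 5 rose, against 19.5% of all such genes. Hoxa5 rose from 15.5 to 33.3 FPKM and Hoxa10 from 3.63 to 6.62 FPKM (limma, log2 differences 1.05 and 0.72).

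Of 17 imprinted genes 8 rose and 3 fell. The largest change was the fall of Igf2, a fetal growth factor, which was at 39.7, 43.2 and 42.6 FPKM at E12.5 and 7.18, 8.996 and 12.1 FPKM at E16.5. The groups were far apart (limma, log2 difference -2.07 ± 0.15 SE, adjusted p = 2.5e-09). Meg3, a non-coding RNA of the maternal Dlk1 locus, was at 1.68, 2.48 and 1.80 FPKM at E12.5 and 5.92, 6.02 and 9.24 FPKM at E16.5. All E16.5 libraries stood above the E12.5 libraries (limma, log2 difference 1.42 ± 0.20 SE, adjusted p = 1.1e-05). Rian, from the same cluster, went from 3.02 to 6.52 FPKM (log2 difference 0.91), and Grb10, an adaptor of insulin signalling, from 15.8 to 23.8 FPKM (log2 difference 0.56). The 24 genes of cholesterol synthesis and uptake did not rise as a list. Of them 5 rose (20.8%, near the 19.5% of all genes at 1 FPKM or more in all 6 libraries) and 0 fell. The median log2 difference was 0.01, with 12 differences above 0 and 12 below. Srebf2, the regulator of the pathway, rose from 59.2 to 86.3 FPKM (log2 difference 0.54).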
